A study of Mus musculus with 18 samples.

Results

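Dppa3, Sycp3, Ddx4, Gdf9, Zp1 and Tex15 are genes of germ cells and oocytes, and their levels were read in newborn mouse oviduct, uterus and vagina with and without diethylstilbestrol (DES) before birth. The members were chosen by name, with earlier results of these data known. They are the 6 genes whose symbols were listed, with all probe sets of the main chip annotated to one of them alone. That gave 6 probe sets, 1 for each gene, of 12393 genes with a probe set of their own. DES is a synthetic estrogen, and the oviduct, uterus and vagina form along the Müllerian duct. Pregnant ICR mice received 67 µg of DES per kg of body weight, or oil, every day from fetal day 10 to fetal day 18. RNA was taken on the day of birth, per the labels from 3 litters. The 6 groups were DES oviduct, oil oviduct, DES uterus, oil uterus, DES vagina and oil vagina, each with 3 arrays. DES vagina array 1 was made on an older chip and entered no fit, so the DES vagina group has n = 2. The labels do not say whether each array holds 1 litter or a pool, and p-values measure the spread between these samples, which may be technical.

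Germ cells arise outside the gonad, migrate into it, and in the female enter meiosis before birth. By birth the mouse ovary holds oocytes in late meiotic prophase, some already enclosed by somatic cells. Oviduct, uterus and vagina are built of epithelium, mesenchyme, muscle and, on the outside, mesothelium, and are not known as sites of germ cells. Many germline genes have promoters rich in CpG that are kept silent in somatic cells by DNA methylation and by repressor complexes that bind E-box and E2F sites.

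Values are microarray signals scaled to a common mean of 500 on each array. A probe set is called Present, Marginal or Absent on an array by a test of its matched against its mismatched probes. Changes are log2 changes of signal + 32 from a limma fit over 17 arrays, with p-values adjusted by Benjamini-Hochberg over the 16702 probe sets tested and a threshold of 0.05. All 6 members passed the filter of a Present call on at least 2 arrays. Sycp3 passed with 3 Present calls, on oil oviduct arrays 2 and 3 and DES uterus array 3. Ddx4 passed with 5 Present calls, all in oil oviduct and DES uterus, its 2 highest groups. Sycp3 thus entered the tests mainly, and Ddx4 only, through groups where they are high. Their calls do not support the changes of other genes. Where a group was Absent on every array with calls, a fold is a lower bound, written "at least": there each array of the dim group counts with the lowest signal called Present on it, unless the probe set itself read higher.

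Several arrays stand apart or have conflicting records. Of the 17 arrays, 52.7% to 66.3% of probe sets were Present on the 16 with calls. The deposited file for oil oviduct array 1 holds the same values as the one for DES oviduct array 1, so its values come from the value table and it has no calls. The array record of DES oviduct array 3 names the vagina. Scanning took place on 2 days, with array 3 of every group on the second day. Records of those later scans name an age of 19 days post coitum. On the 6 second-day arrays 63.7% to 66.3% of probe sets were Present. Before scaling, first-day oviduct arrays had a trimmed mean signal of 59.8 to 79.3. For first-day uterus arrays it was 43.0 to 54.6, and for first-day vagina arrays 26.5 to 36.5. Their Present shares were 53.9% to 58.6% (oviduct), 52.7% to 55.2% (uterus) and 55.4% to 56.9% (vagina). What raw level did to calls and to differences between organs was not tested. Outside the vagina, oil oviduct arrays 1 and 3 and oil uterus array 3 carry raised skeletal muscle transcripts. Without them, only array 2 is left in the oil oviduct group.

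The promoters of Sycp3, Ddx4 and Dazl are shown. Dazl encodes a germ cell RNA-binding protein, and its signal was among the 5 most correlated with that of Dppa3. RefSeq (GRCm38.p6) gave entries for 2 of the 6 members, Sycp3 and Ddx4, and none for Dppa3, Gdf9, Zp1 and Tex15. Dazl was added after its values were seen. Each sequence runs 5′ to 3′ over 250 bases before and 50 bases after the gene's start, and capitals mark E-boxes (CACGTG, the same on both strands) and E2F sites (GCGGGAA or its reverse complement). They lie at chr10:88459337-88459636 on the plus strand (Sycp3), chr13:112652261-112652560 on the minus strand (Ddx4) and chr17:50293571-50293870 on the minus strand (Dazl).
Sycp3: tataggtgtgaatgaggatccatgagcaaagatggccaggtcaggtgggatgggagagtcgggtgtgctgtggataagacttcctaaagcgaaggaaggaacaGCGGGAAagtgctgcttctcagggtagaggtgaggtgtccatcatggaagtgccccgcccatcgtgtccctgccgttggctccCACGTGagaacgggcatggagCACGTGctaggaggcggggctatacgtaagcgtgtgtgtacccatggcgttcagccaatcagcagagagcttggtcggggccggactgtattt
Ddx4: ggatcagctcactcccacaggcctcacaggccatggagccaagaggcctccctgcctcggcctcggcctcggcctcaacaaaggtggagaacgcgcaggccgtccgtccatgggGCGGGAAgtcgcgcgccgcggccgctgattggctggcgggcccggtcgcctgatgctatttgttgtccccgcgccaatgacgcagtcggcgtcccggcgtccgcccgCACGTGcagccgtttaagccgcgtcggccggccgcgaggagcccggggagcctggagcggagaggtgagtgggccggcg
Dazl: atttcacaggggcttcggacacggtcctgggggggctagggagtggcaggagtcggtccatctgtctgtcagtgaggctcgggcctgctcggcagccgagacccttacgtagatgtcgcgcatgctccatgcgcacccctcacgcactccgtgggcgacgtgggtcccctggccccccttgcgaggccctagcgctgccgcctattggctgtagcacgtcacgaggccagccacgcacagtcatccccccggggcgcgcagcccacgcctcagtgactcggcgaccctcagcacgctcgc
The Sycp3 window holds 2 E-boxes and 1 E2F site. The Ddx4 window holds 1 E-box and 1 E2F site, and the Dazl window holds neither. Of all 32851 promoters of this length, 7.15% hold the E-box and 4.6% the E2F site. The consensus estrogen response element, an inverted repeat of its half-site around 3 bases of any kind, which occurs in 0.07% of these promoters, had no match in any of the 3 windows on either strand. CpG dinucleotides number 15 in the Sycp3 window, 38 in the Ddx4 window and 28 in the Dazl window, against a median of 7 over all promoters. These matches are descriptions of the letters and show no binding.

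**Figure D1:**
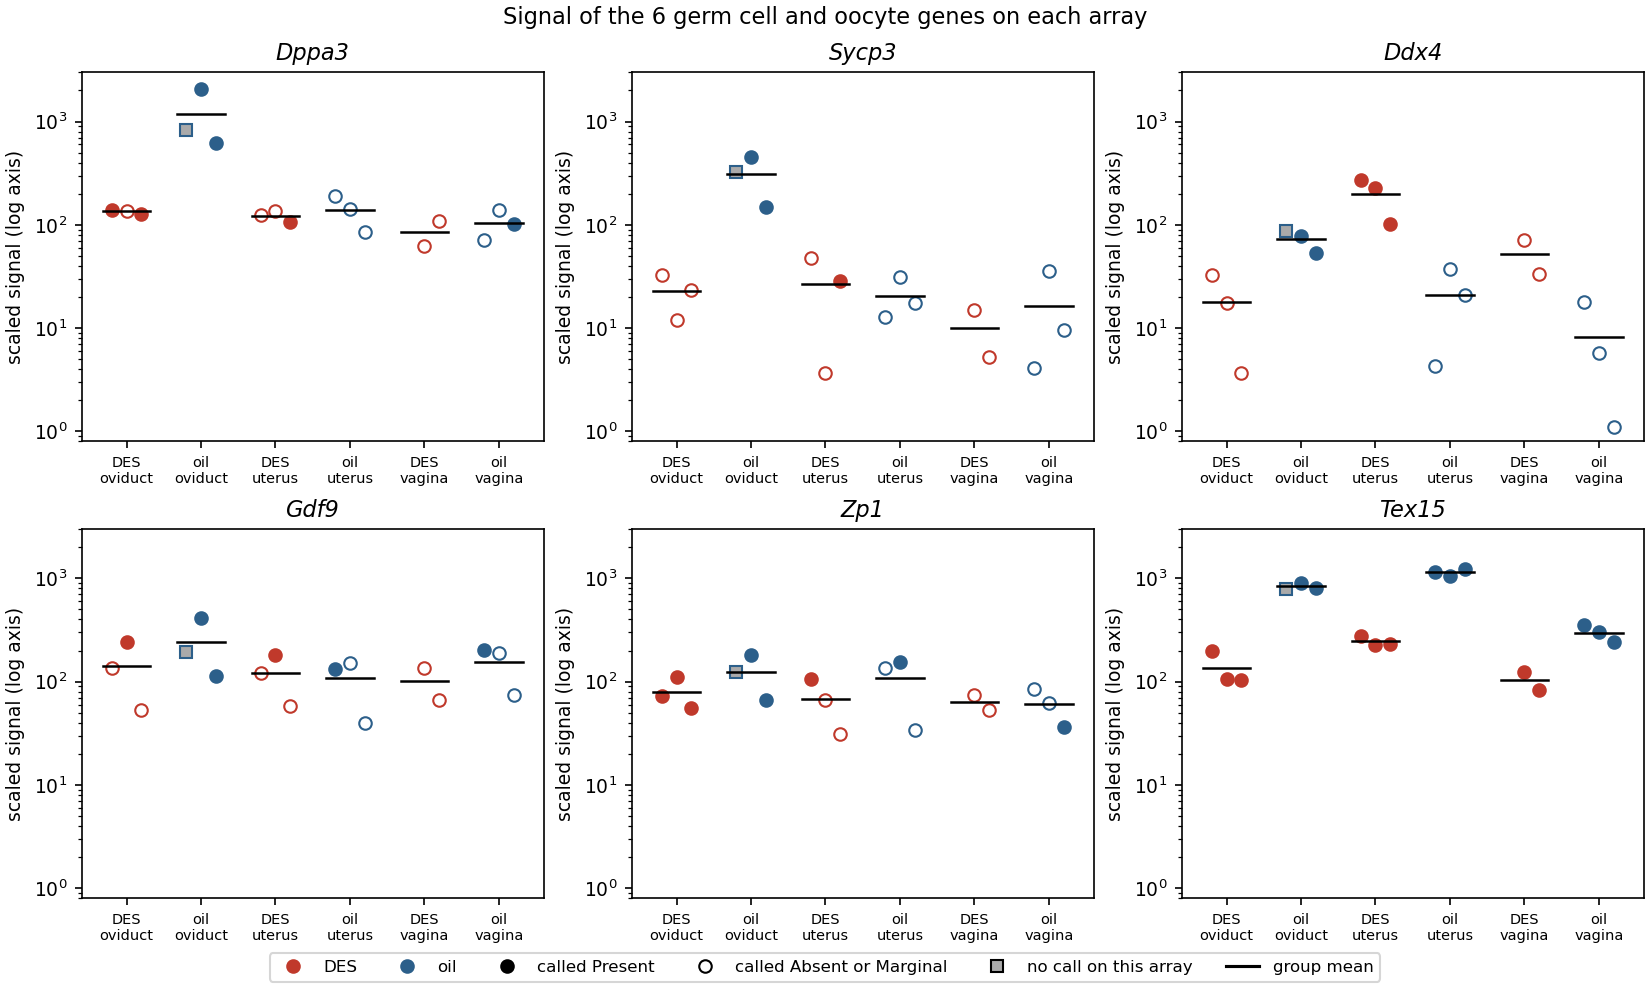
Scaled signal (log axis) of each member on the 17 main-chip arrays, with DES groups in red and oil groups in blue, filled points for Present calls, open points for Absent or Marginal calls, a grey square for the array without calls and a line at the group mean. Dppa3 and Sycp3 are high on the 3 oil oviduct arrays, Ddx4 on the 3 DES uterus arrays, and Tex15 on all oil oviduct and oil uterus arrays.

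The first question was how prenatal DES changed these genes in the oviduct. Dppa3, Sycp3 and Tex15 fell, and Ddx4, Gdf9 and Zp1 did not pass the test. Those 3 falls among 6 members compare with 9.44% of all 9637 genes tested called in either direction and 4.09% called lower. The median log2 change of the members was -1.75, against -0.06 over all genes. Since the members were chosen with earlier results known, counts and medians of members set beside all genes are descriptions, here and below.

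Dppa3 encodes a small protein of primordial germ cells, oocytes and early embryos that protects maternal DNA methylation. Its signal was 139, 137 and 128 on the DES oviduct arrays, against 835, 2064 and 614 on the oil oviduct arrays. The groups did not overlap, and oil oviduct array 2 was the highest of all arrays. In bulk RNA, fewer cells of a type and less RNA per cell cannot be told apart. Dppa3 was Present on 2 of 3 DES oviduct arrays and on both oil oviduct arrays with calls. The log2 change was -2.66 (standard error 0.35, adjusted p = 0.000105, limma). With the scan day as a block it was -2.66 (adjusted p = 8.36e-06). It was -2.99 within the first scan day (adjusted p = 0.000109), and the single arrays of the second day differed by -2.01.

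Sycp3 encodes a protein of the axial and lateral elements of the synaptonemal complex, the scaffold between paired chromosomes in meiosis. Its signal was 32.7, 12 and 23.5 on the DES oviduct arrays, against 326, 452 and 149 on the oil oviduct arrays. All DES oviduct arrays were Absent and below every oil oviduct array. Sycp3 was at least 5.56-fold lower in DES oviduct (adjusted p = 0.000523, limma). It had passed the filter mainly through the oil oviduct, and it also passed the test in a fit without that filter. The fitted log2 change of -2.55 was -2.55 with the scan day as a block (adjusted p = 9.49e-05) and -2.96 within the first day (adjusted p = 0.00155). The second day's arrays differed by -1.71.

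Tex15 is needed in mouse spermatocytes for meiotic recombination and in male germ cells for silencing of transposons guided by piRNA. Its signal was 197, 107 and 105 on the DES oviduct arrays, against 791, 897 and 815 on the oil oviduct arrays. It was Present on all 16 arrays with calls and did not overlap between the oviduct groups. The log2 change was -2.41 (standard error 0.21, adjusted p = 1.88e-06, limma). Blocking on scan day gave -2.41 (adjusted p = 4.27e-08), the first day alone -2.29 (adjusted p = 2.36e-05) and the second day's arrays -2.63.

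Ddx4, the mouse homologue of the Drosophila gene vasa, encodes an RNA helicase of germ cells. It read 32.7, 17.6 and 3.7 on the DES oviduct arrays, all Absent, against 87.2, 77.7 and 53 on the oil oviduct arrays. The groups did not overlap, but the log2 change of -1.09 did not pass the test (adjusted p = 0.0965, limma). Blocking on the scan day gave an adjusted p of 0.0237, within the first day it was 0.16 with a log2 change of -1.01, and the second day's arrays differed by -1.25.

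Gdf9, a growth factor of the TGF-beta family secreted by oocytes, read 134, 240 and 53.5 on the DES oviduct arrays, against 192, 411 and 114 on the oil oviduct arrays. Zp1, a glycoprotein of the zona pellucida around the oocyte, read 72.3, 110 and 54.9 on the DES oviduct arrays, against 123, 182 and 66.8 on the oil oviduct arrays. Both genes overlapped between the groups. Their log2 changes were -0.64 for Gdf9 (95% interval -1.71 to 0.44, adjusted p = 0.593) and -0.45 for Zp1 (95% interval -1.32 to 0.42, adjusted p = 0.66).

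The oviduct arrays also differed in markers of other cells. Summed skeletal muscle signal over 24 tested genes was 2314 to 3429 on the DES oviduct arrays, against 6697, 3228 and 14389 on oil oviduct arrays 1, 2 and 3. Oil oviduct array 2, with the least muscle signal of its group, had the most Dppa3, Sycp3, Gdf9, Zp1 and Tex15. Without the 3 oil arrays of high muscle signal, only array 2 is left in the oil oviduct group. The oviduct log2 change was then -3.65 for Dppa3, -3.16 for Sycp3 and -2.51 for Tex15. Without the 2 oviduct arrays of conflicting records it was -2.77, -2.47 and -2.31 for the same genes, and all 3 passed in that fit.

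In the uterus, Tex15 fell and Ddx4 rose with DES, and the other 4 members did not pass the test. The background was 9.87% of genes called in either direction, 5.61% higher and 4.25% lower. The median log2 change of the members was 0.00, against -0.05 over all genes.

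Tex15 read 274, 227 and 233 on the DES uterus arrays, against 1164, 1044 and 1235 on the oil uterus arrays. Every DES array was below every oil array by a wide margin, and the oil uterus had the highest group mean of this gene. The log2 change was -2.09 (standard error 0.21, adjusted p = 6.35e-06, limma). It was -2.01 within the first day (adjusted p = 5.48e-05), -2.26 between the arrays of the second day and -2.09 with the day as a block (adjusted p = 2e-07).

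Ddx4 read 273, 227 and 101 on the DES uterus arrays, all Present, against 4.3, 37.2 and 21.1 on the oil uterus arrays, all Absent. The DES uterus was the highest group of this gene, above the oil oviduct with no overlap. Ddx4 was at least 3.47-fold higher in DES uterus (log2 change 2.10, adjusted p = 0.0015, limma). It had passed the filter only through DES uterus and oil oviduct, and it also passed the test in a fit without that filter. Within the first day the log2 change was 2.49 (adjusted p = 0.00125), the second day's arrays differed by 1.32, and blocking on the day gave 2.10 (adjusted p = 9.4e-05). Without the oil arrays of high muscle signal it was 2.13 (adjusted p = 0.011).

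Dppa3 and Sycp3 were low in both uterus groups. Dppa3 read 125, 137 and 106 on the DES uterus arrays, against 188, 141 and 84.9 on the oil uterus arrays, and was Present on 1 DES array and on no oil array. Sycp3 read 48.2, 3.7 and 28.6 on the DES uterus arrays, against 12.8, 31.4 and 17.5 on the oil uterus arrays. The groups overlapped for both genes, with log2 changes of -0.09 (95% interval -0.84 to 0.66) for Dppa3 and 0.10 (95% interval -0.75 to 0.95) for Sycp3. Gdf9 averaged 120 ± 61.6 in DES uterus and 108 ± 60 in oil uterus (SD, n = 3 each, log2 change 0.15, adjusted p = 0.93). Zp1 averaged 67.5 ± 36.9 in DES uterus and 108 ± 64.3 in oil uterus (SD, n = 3 each, log2 change -0.42, adjusted p = 0.661).

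In the vagina, Tex15 alone of the members passed the test, where 2.68% of all genes were called and 0.778% were called lower. It read 123 and 82.9 on the 2 DES vagina arrays, against 351, 300 and 241 on the oil vagina arrays, with no overlap. The log2 change was -1.29 (standard error 0.24, adjusted p = 0.00577, limma). It was -1.26 with the day as a block (adjusted p = 0.000919), -1.20 within the first day (adjusted p = 0.0328) and -1.25 between the second day's arrays. Tex15 lost the call without DES vagina array 3 (adjusted p = 0.122) and in a fit of the vagina arrays alone.

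The other 5 members gave low signals in the vagina. Ddx4 read 71.7 and 33.4 on the DES vagina arrays, against 17.8, 5.7 and 1.1 on the oil vagina arrays. All 5 arrays were Absent, so no fold is given, and the adjusted p was 0.307. Dppa3 was Present on 1 vagina array, oil array 3, and Sycp3 on none. The log2 changes of Dppa3, Sycp3, Gdf9 and Zp1 lay between -0.45 and 0.06, with adjusted p of 0.877 or more. On the older chip, DES vagina array 1 was Absent for Sycp3, Ddx4, Gdf9, Zp1 and Dppa3. Summed skeletal muscle signal was 29466 and 39197 on the DES vagina arrays of the main chip, against 7584, 26141 and 24491 on the oil vagina arrays. Its part in the vagina results was not tested.

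**Figure D2:**
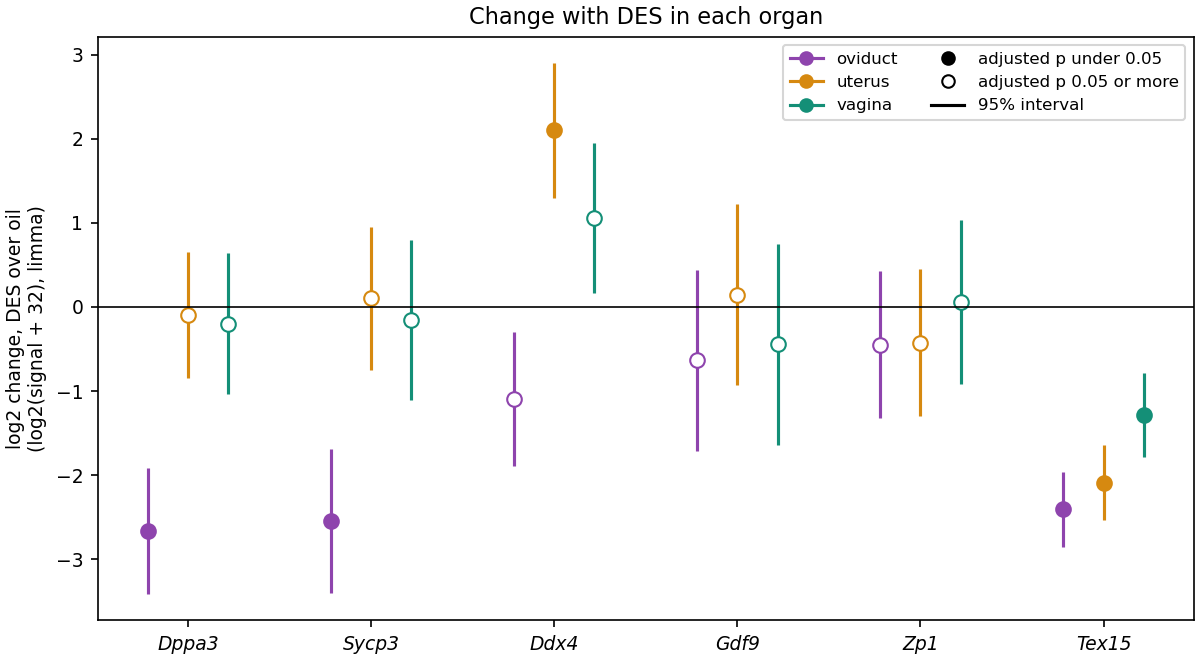
Log2 change of DES over oil for each member (horizontal axis) in oviduct, uterus and vagina, with 95% intervals from the limma fit over 17 arrays and filled points where the adjusted p was under 0.05. Tex15 lies below 0 in all 3 organs, Dppa3 and Sycp3 in oviduct, and Ddx4 is above 0 in uterus.

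Whether the DES effect differed between organs was tested directly. Of the 6 members, 3 passed for oviduct minus uterus, where 1.74% of all genes were called, and 1 for oviduct minus vagina, where 1.68% were called. Ddx4 had the largest difference between oviduct and uterus among the members (-3.19, adjusted p = 0.0053). Dppa3 differed by -2.57 from the uterus (adjusted p = 0.0145) and by -2.46 from the vagina (adjusted p = 0.0278). Sycp3 differed by -2.65 from the uterus (adjusted p = 0.0267) and by -2.39 from the vagina, which did not pass (adjusted p = 0.0656). Within the first scan day the difference from the uterus was -3.50 for Ddx4 (adjusted p = 0.00768), -2.73 for Dppa3 (adjusted p = 0.0147) and -2.97 for Sycp3 (adjusted p = 0.0509).

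These differences depended on the arrays used more than the oviduct changes did. Without the 2 oviduct arrays of conflicting records, the oviduct minus uterus difference was -2.87 for Ddx4 (adjusted p = 0.0459), -2.68 for Dppa3 (adjusted p = 0.0565) and -2.57 for Sycp3 (adjusted p = 0.134). Without the 3 oil arrays of high muscle signal it was -3.31 for Dppa3, -3.30 for Ddx4 and -3.23 for Sycp3, with only array 2 left in the oil oviduct group. Sycp3 lost this call under 13 of 26 alternatives, and Dppa3 lost the oviduct minus vagina call under 10 of 25.

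Tex15 showed no such difference that passed. Its DES effect in oviduct minus uterus was -0.31 (95% interval -0.94 to 0.32, adjusted p = 0.963) and in oviduct minus vagina -1.12 (95% interval -1.79 to -0.45, adjusted p = 0.117). Blocking on the scan day brought the second value past the threshold (adjusted p = 0.0268).

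Averaged over the 3 organs, Tex15 (-1.93), Dppa3 (-0.98) and Sycp3 (-0.87) fell and Ddx4 (0.69) rose, where 19.4% of all genes were called. The uterus and vagina changes of Dppa3 and Sycp3 did not pass on their own. The average of Ddx4 joins organs of opposite sign and just passed (adjusted p = 0.0462), and it lost the call under 15 of 31 alternatives. Sycp3 (adjusted p = 0.0191) lost it under 4 of 31.

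The oil groups were compared between organs next. In oil, Dppa3 and Sycp3 were higher in oviduct than in uterus, where 1.83% of all genes were called and 1.29% were called higher. Dppa3 was at least 6.42-fold higher in oil oviduct (1171 ± 781) than in oil uterus (138 ± 51.6; SD, n = 3 each, adjusted p = 0.000424). Sycp3 was at least 5.28-fold higher in oil oviduct (309 ± 152) than in oil uterus (20.5 ± 9.7; SD, n = 3 each, adjusted p = 0.00161). Within the first day the log2 differences were 2.79 for Dppa3 and 2.97 for Sycp3, and between the second day's arrays 2.47 and 1.88. Without the oil arrays of high muscle signal, which leaves only array 2 in oil oviduct, the log2 differences were 3.43 for Dppa3 and 3.18 for Sycp3. Without the oviduct arrays of conflicting records they were 2.82 and 2.51, both past the threshold. Gdf9 differed by 0.91 (adjusted p = 0.579), Zp1 by 0.22 (adjusted p = 0.95), Ddx4 by 1.02 (adjusted p = 0.276) and Tex15 by -0.44 (adjusted p = 0.471).

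Against the oil vagina, 4 of the 6 members were higher in the oil oviduct, where 4.7% of all genes were called and 2.41% were called higher. The log2 difference was 2.99 for Dppa3 (adjusted p = 5.81e-05) and 1.41 for Tex15 (adjusted p = 0.000467). Sycp3 was at least 5.35-fold higher (adjusted p = 0.000377) and Ddx4 at least 1.76-fold higher (adjusted p = 0.0492). The Ddx4 call was lost under 13 of 20 alternatives, among them each single array left out (log2 difference 1.40 and adjusted p = 0.0729 within the first day). Tex15 was also higher in oil uterus (1147.5 ± 96.1) than in oil vagina (297 ± 55.1; SD, n = 3 each, log2 difference 1.85, adjusted p = 4.91e-05), where 4.52% of all genes were called.

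In DES-exposed organs, Ddx4 was at least 4.18-fold lower in oviduct (18 ± 14.5) than in uterus (200.2 ± 89.1; SD, n = 3 each, adjusted p = 0.00181), where 5.29% of all genes were called. Tex15 averaged 136 ± 52.7 in DES oviduct and 245 ± 25.3 in DES uterus (SD, n = 3 each, log2 difference -0.76, adjusted p = 0.054). Tex15 passed in the fit blocked on scan day (adjusted p = 0.0138). Between DES oviduct and DES vagina, limma called none of the 6 members at either the adjusted or the unadjusted threshold (0 and 0), where 6.64% of all genes were called. The oil comparisons share their control samples with the DES comparisons, so their calls are not separate evidence.

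Ordered by level, each member gave a different ranking of the groups. For Dppa3 and Sycp3 the oil oviduct stood above the other 5 groups, which overlapped from neighbour to neighbour (means 85.8 to 138 for Dppa3 and 10.1 to 26.8 for Sycp3). For Ddx4 the DES uterus came first, followed without further gaps by oil oviduct (72.6), DES vagina (52.6), oil uterus (20.9), DES oviduct (18) and oil vagina (8.2). For Gdf9 and Zp1 every pair of neighbours overlapped, with the oil oviduct first (239 ± 154 for Gdf9 and 124 ± 57.7 for Zp1; SD, n = 3). For Tex15, oil uterus (1147.5), oil oviduct (834.5) and oil vagina (297) came first and DES vagina (103) last. The oil vagina and the DES uterus overlapped, as did DES oviduct and DES vagina.

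Across the 17 arrays, Dppa3 and Sycp3 had a Pearson correlation of 0.937 and Gdf9 and Zp1 one of 0.785, while Ddx4 and Tex15 had -0.004. These arrays share groups, scan days and scaling, and the values are descriptions. The genes most correlated with Dppa3 were Sycp3, Stk26 (0.907), Cst12 (0.904), Col18a1 (0.893) and Dazl (0.867). For Sycp3 they were Dppa3, Cst12 (0.917), Serpinb6a (0.87), Col18a1 (0.86) and Stk26 (0.852). For Tex15 they were Nkd1 (0.934), Sema3a (0.933), Cks1b (0.924), Casp2 (0.924) and Mest (0.923), none of which is on the germline lists.

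Of these neighbours, Mest, an imprinted gene of embryonic mesoderm, and Stk26, a protein kinase, were each Present on all 16 arrays with calls. Mest read 4110 to 5149 on the DES oviduct arrays, against 7544 to 9112 on the oil oviduct arrays. Stk26 read 546 to 693 on the DES oviduct arrays, against 1527 to 1836 on the oil oviduct arrays, and 323 to 379 on the DES uterus arrays. Cst12, a cystatin, was Present on 5 arrays, all of oviduct, and read 72 to 117 on the DES oviduct arrays, against 300 to 353 on the oil oviduct arrays, and 30.2 to 49 on the oil vagina arrays.

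The members were set beside 97 other listed germline genes, of which 64 had a probe set of their own and 33 were tested. With DES in the oviduct 2 of the 33 rose and 3 fell, where 9.44% of all genes were called, which leaves this count near the share over all genes. The median log2 change of the 33 was -0.53, against -0.06 over all genes. Dazl, Tcl1 and Piwil2 were Present on oil oviduct arrays alone and passed the filter only through that group, which lowers this median. It is a description. In the uterus 2 passed as higher and 3 fell (9.87% of all genes called), and in the vagina 2 fell (2.68% called). The lists were primordial germ cell genes (12 tested), meiotic prophase genes (11), germline RNA and piRNA genes (8) and oocyte growth genes (9), members included.

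Among the primordial germ cell genes, Dazl read 70.9, 35.9 and 3.7 on the DES oviduct arrays, against 189, 285 and 127 on the oil oviduct arrays. It was Present on the 2 oil oviduct arrays with calls and Absent on the other 14, so it passed the filter only through the group where it is high, and its call does not support the changes of other genes. Dazl was at least 3.32-fold lower in DES oviduct (adjusted p = 0.023, limma), by -1.66 within the first day (adjusted p = 0.0242) and by -2.16 between the second day's arrays. The call was lost under 8 of 20 alternatives, among them those without oil oviduct array 2 (adjusted p = 0.11) or without the oviduct arrays of conflicting records (adjusted p = 0.192). Its difference between oil oviduct and oil uterus was 1.93 (adjusted p = 0.0529).

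Other genes of that list behaved differently. Prdm1, a transcriptional repressor that specifies primordial germ cells and is also made by many somatic cells, fell in all 3 organs (-1.40 in oviduct, -2.44 in uterus and -1.23 in vagina). The oviduct call was lost without the oil arrays of high muscle signal (adjusted p = 0.0772), and the vagina call under 5 of 16 alternatives. It was lower in oil oviduct than in oil uterus (-1.59, adjusted p = 0.00129). Utf1, a chromatin protein of pluripotent cells, read 432.5, 524 and 514 on the DES uterus arrays, against 79, 153 and 54.4 on the oil uterus arrays, and was at least 4.30-fold higher with DES (adjusted p = 0.0265). Utf1 was Present on 2 arrays, array 3 of DES uterus and of DES vagina, and so passed the filter only through DES groups, and its call was lost under 8 of 17 alternatives. Ifitm1, an interferon-induced membrane protein also found in primordial germ cells, rose in oviduct (0.76, adjusted p = 0.012), a call lost under 5 of 20 alternatives.

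Of the meiotic genes, Syce2, a protein of the central element of the synaptonemal complex, fell in all 3 organs as Tex15 did. Its signal was 430 to 542 on the DES oviduct arrays, against 748 to 932 on the oil oviduct arrays (log2 change -0.81, adjusted p = 0.00153). The log2 change was -0.73 in uterus (adjusted p = 0.00335) and -0.86 in vagina (adjusted p = 0.00713), and the gene was Present on all 16 arrays with calls. Its vagina call was lost under 2 of 16 alternatives. Psmc3ip, a cofactor of strand exchange that is also expressed outside meiosis, fell in uterus (-0.64, adjusted p = 0.0427), a call lost under 9 of 18 alternatives.

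Of the oocyte genes, Gja4, a gap junction protein of oocytes and of endothelium, rose in oviduct (0.65, adjusted p = 0.0466), a call lost under 12 of 20 alternatives. Lhx8, a transcription factor of early oocytes, passed as higher in DES uterus than in oil uterus, but all arrays of both groups were Absent, so no fold is given. In oil, Lhx8 was at least 2.89-fold higher in oviduct than in uterus (adjusted p = 0.00208), a call lost without the oil arrays of high muscle signal (adjusted p = 0.143). Figla, the transcription factor that switches on the zona genes, read 192, 443 and 269 on the oil oviduct arrays and 61.7, 50.9 and 40 on the oil vagina arrays (at least 3.85-fold higher in oviduct, adjusted p = 0.0385). That call was lost under 9 of 20 alternatives, with the highest adjusted p (0.183) without oil oviduct array 2.

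Oil oviduct array 2 had the highest signal of 15 of the 33 genes, whereas no other array had that of more than 3. Of the 9 tested genes of the oocyte list, members included, 8 had their highest signal on that array. Chosen after their values were seen, Zp2 was Present on that array alone, at 669, and Nlrp5 likewise, at 155. Zp3 read 108.5, 63.7 and 66 on the DES oviduct arrays, against 115.5, 321 and 74.7 on the oil oviduct arrays. The DES and oil groups thus overlapped for Zp3, and its change did not pass in any organ. Without oil oviduct array 2, the oviduct change was -2.17 for Dppa3 (adjusted p = 0.000347), -2.24 for Sycp3 (adjusted p = 0.00487) and -2.35 for Tex15 (adjusted p = 2.5e-05).

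**Figure D3:**
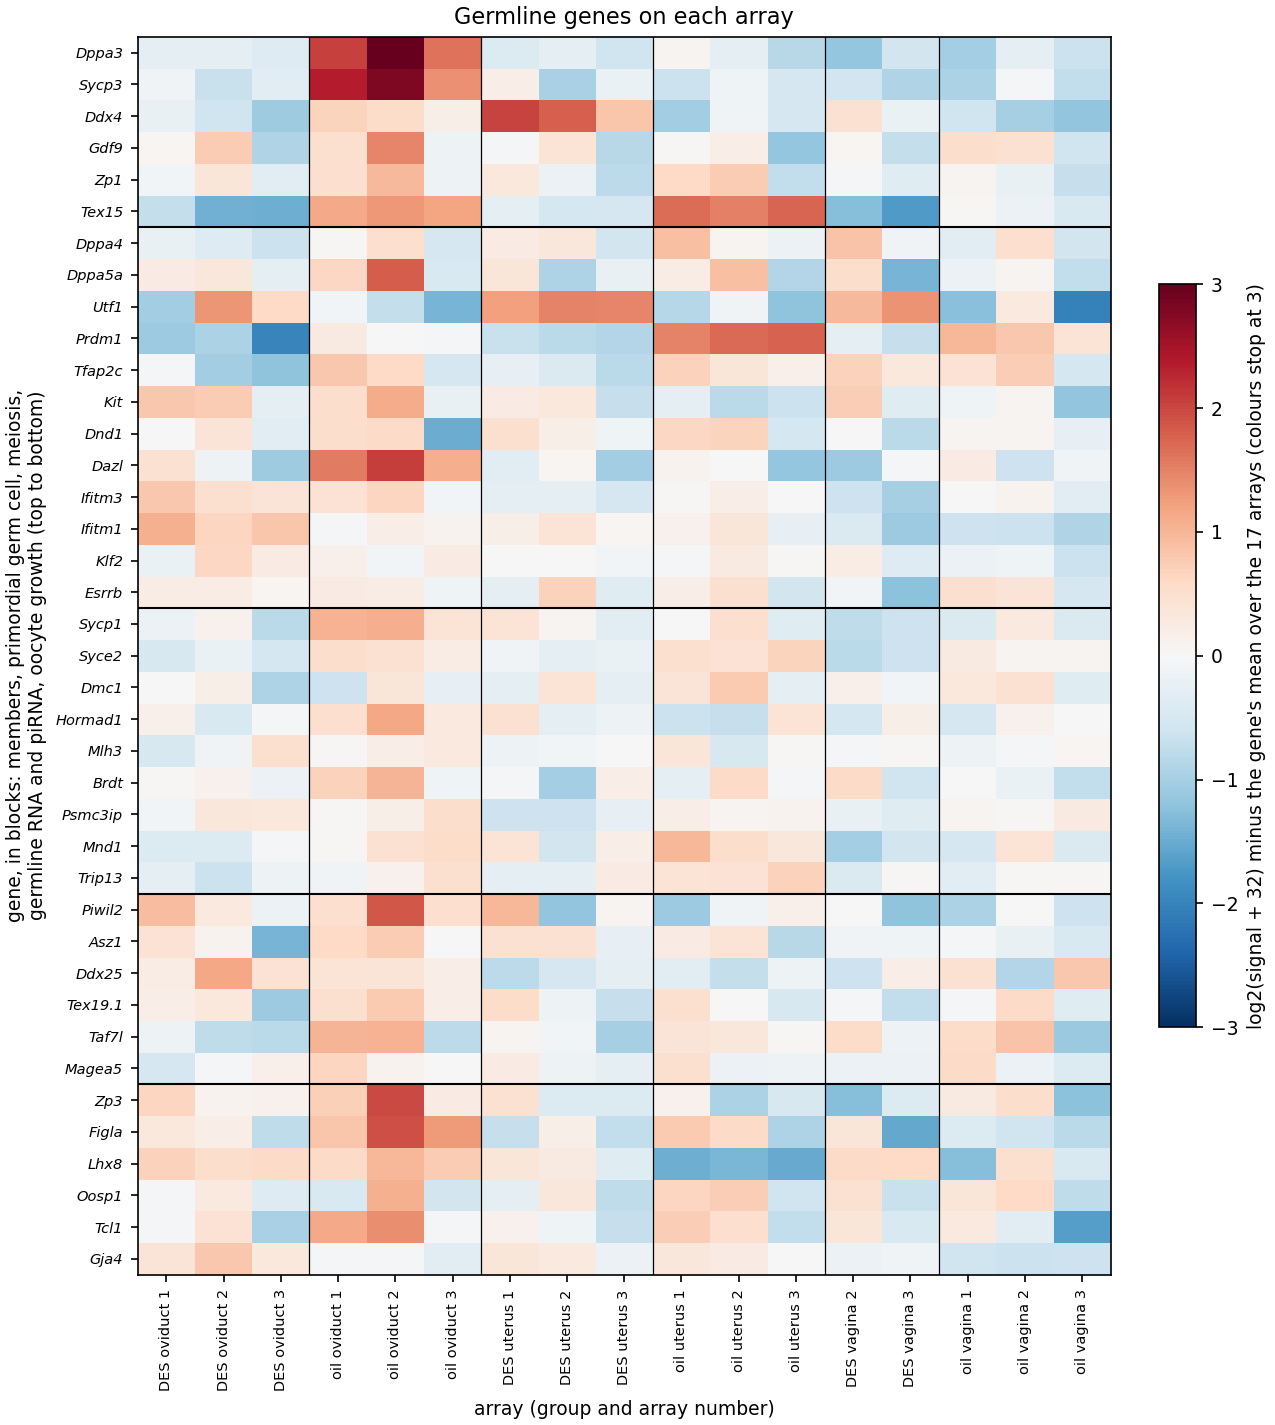
Log2(signal + 32) of the 6 members and the 33 other tested germline genes (rows) on each of the 17 arrays (columns), minus each gene's mean over the arrays, with colours that stop at 3. The top rows of oil oviduct arrays 1 to 3 are red for Dppa3 and Sycp3, and array 2 is red across many more rows, 15 of the 33 having their highest signal there.

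Markers of ovarian somatic cells were read beside the oviduct results, since the ovary lies next to the oviduct. Of 25 listed, 22 had a probe set and 14 were tested. With DES, 2 of 14 fell in oviduct, Amhr2 (at least 4.04-fold) and Kitl (-0.77), and none rose, where 9.44% of all genes were called and 4.09% called lower. Amhr2, the receptor of anti-Müllerian hormone, is also made by the mesenchyme of the Müllerian duct, and Kitl encodes the ligand of the receptor Kit. Amhr2 (at least 7.45-fold) and Kitl (-1.01) were likewise lower in DES uterus, where Foxo1 and Runx1 rose. Of all genes 9.87% were called in the uterus, and 4.25% were called lower. Amhr2 was Present on 2 arrays, oil oviduct array 3 and oil uterus array 3, and so passed the filter only through the oil groups where it is high. The Kitl call in oviduct was lost under 2 of 20 alternatives (highest adjusted p = 0.16). Between oil oviduct and oil uterus limma called 0 of the 14, with 3 at an unadjusted p under 0.05, where 1.83% of all genes were called.

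The summed signal of the 14 ovarian somatic genes was 3186 to 3885 on the DES oviduct arrays, against 4714 to 5154 on the oil oviduct arrays. In the uterus it was 3421 to 4637 on the DES arrays, against 3420 to 4179 on the oil arrays. Of the 22 genes with a probe set, 7 were Present on no array (Nr5a1, Amh, Cyp11a1, Cyp17a1, Fshr, Hsd3b1 and Gng13) and 10 were Present on both oil oviduct arrays with calls. Among the 10, Gata4, a transcription factor of gonadal somatic cells, was Present on 4 arrays, all of oviduct, 2 of them DES and 2 oil. Its signal did not differ past the threshold between oil oviduct and oil uterus (adjusted p = 0.137) or oil vagina (adjusted p = 0.363, limma). Bmp2, Kitl and Foxo1, also among the 10, were Present on all 16 arrays with calls. Star was Present on 9 arrays, among them 3 of oil vagina and 0 of oil oviduct. The part of ovarian cells in the oviduct results was not tested.

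Mesothelial genes moved as well. Of 10 tested, 2 rose (Krt8 and Krt18) and 4 fell (Upk3b, Wt1, Msln and Gpm6a) with DES in the oviduct. Of all genes 9.44% were called there, and 4.09% were called lower. The Wt1 call was lost without the 2 oviduct arrays of conflicting records (adjusted p = 0.0599, limma). Upk3b, a marker of mesothelium, read 855 to 1427 on the DES oviduct arrays, against 3126 to 4085 on the oil oviduct arrays. In the uterus 2 of the 10 rose (Krt8 and Krt19) and 2 fell (Upk3b and Wt1), where 9.87% of all genes were called. The log2 change of Upk3b was -1.695 in oviduct and -1.688 in uterus. The uterus call of Wt1 was lost under 6 of 18 alternatives. The summed signal of the list was 17737 to 21084 on the DES oviduct arrays, against 15019 to 18448 on the oil oviduct arrays, of which Krt8, Krt18 and Krt19, keratins of simple epithelia in general, gave 14958 to 17509 on the DES arrays and 7696 to 10387 on the oil arrays. The other 7 genes, summed apart after the values were seen, gave 2780 to 3575 on the DES oviduct arrays, against 7324 to 8642 on the oil oviduct arrays. The direction of the sum thus depended on the keratins. Their part in the germline results was not tested.

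**Figure D4:**
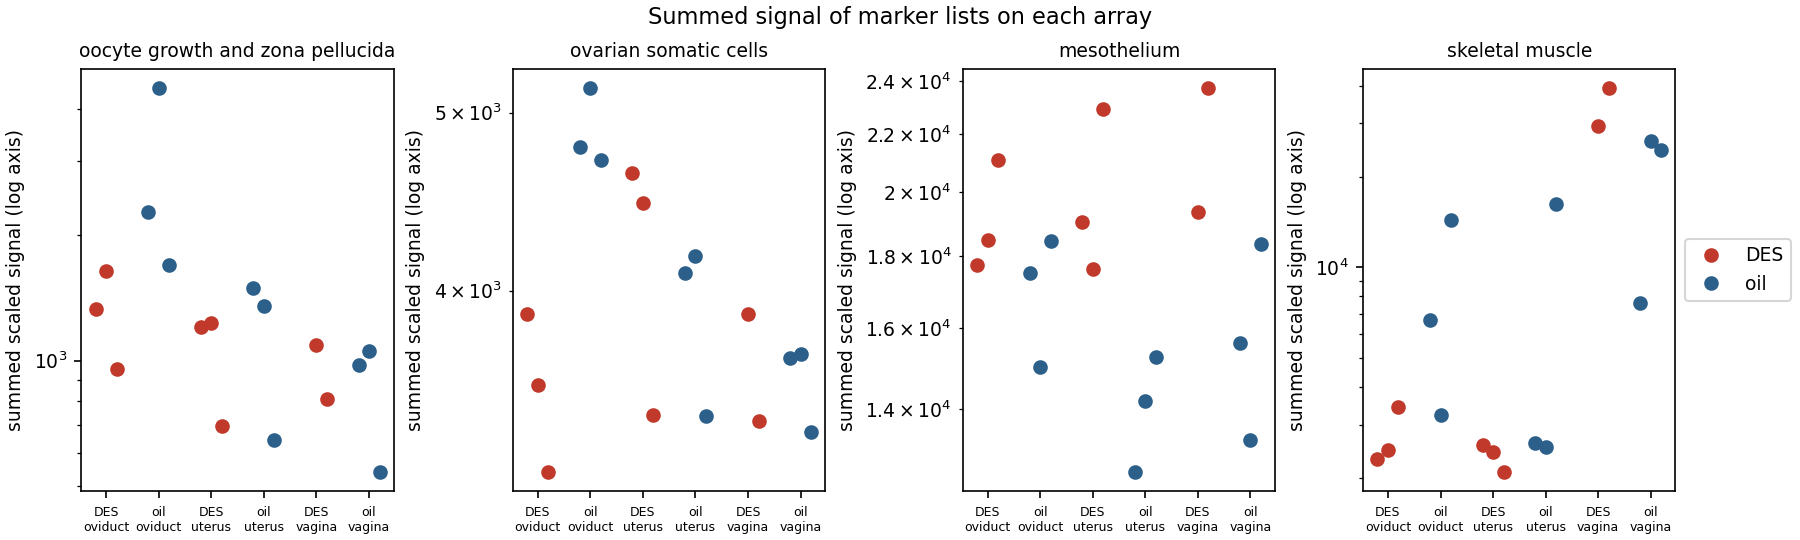
Summed scaled signal (log axis) of the tested genes of 4 marker lists on each array, DES in red and oil in blue. Oil oviduct array 2 has the highest sum of the oocyte list, and the 3 oil oviduct arrays lie above the 3 DES oviduct arrays for the ovarian somatic list. The highest skeletal muscle sums are on vagina arrays. In the other organs, oil oviduct arrays 1 and 3 and oil uterus array 3 have raised skeletal muscle sums.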

How the data were processed

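RNA of 18 samples was hybridised to 1-colour Affymetrix arrays, 17 of the main chip and 1 of an older chip. Per the file headers, each deposited array file gives a signal intensity, a detection call and a detection p-value per probe set, and a deposited value table repeats the intensities. These were not at a common level, so each array was scaled here to a 2% trimmed mean of 500, without control probe sets. Genes come from the platform annotation: of 22690 probe sets on the chip, 20380 had 1 symbol, 691 several and 1555 none, and 64 were controls. The probe set of highest mean log2 signal stood for a gene. Limma 3.58.1 (R 4.3.3) fitted 1 mean per group to log2(signal + 32) of 17 arrays with a variance trend, for probe sets Present on at least 2 arrays, with Benjamini-Hochberg adjustment in every comparison separately. The fit was tested on simulated data. The number of arrays limits the precision. The members, gene lists and tests were chosen with earlier results of these data known. Most other genes named are on a list and passed a test, or are among the 5 most correlated with a member that passed. Further list genes that passed no test, such as Zp3, Tcl1, Piwil2, Gata4, Star and Bmp2, are named to describe their signals or calls. Alternatives changed the scaling, pseudocount, filter, source, variance model, blocks and arrays used.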

Additional observations from a re-analysis of the deposited data

Results flagged for a closer look

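Of the members, 3 changed with DES in a way that differed between oviduct and uterus by the test of the difference itself in limma. Of all genes, 1.74% were called in that test. For Ddx4 the log2 change in oviduct minus that in uterus was -3.19, with all 3 DES arrays below all 3 oil arrays in oviduct and above them in uterus. For Dppa3 it was -2.57, and for Sycp3 -2.65, each with non-overlapping groups in oviduct and overlapping groups in uterus. Dppa3 also differed between oviduct and vagina, by -2.46. The uterus difference lost its call under 13 of 26 alternatives for Sycp3 and under 2 of 26 each for Dppa3 and Ddx4. The vagina difference of Dppa3 lost it under 10 of 25. Skeletal muscle signal and the scan day vary between the same arrays, and their part in these differences was not tested beyond the values without those arrays and within the first day given above.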

How the results depend on the processing

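No call reversed under any alternative that was run. The oviduct count of 3 members called, the uterus count of 2, the oil oviduct against vagina count of 4, the oil uterus against vagina count of 1 and the DES oviduct against vagina count of 0 stayed within 1.5 times under each alternative. The vagina count of 1 was 0 in a fit of the groups compared alone and 0 to 1 with single arrays left out. The organ average (4) was 2 with a pseudocount of 1 and 2 without the 2 oviduct arrays numbered 1. The oil oviduct against uterus count (2) was 1 with a pseudocount of 1. The DES oviduct against uterus count (1) was 2 with quantile normalization, with a filter of Present on every array of a group, with the scan day as a block and without the oviduct arrays numbered 1, and 1 to 2 with single arrays left out. The oviduct minus uterus count (3) was 1 with a pseudocount of 1, without the oviduct arrays numbered 1, without those of conflicting records and without the 3 oil arrays of muscle signal. The oviduct minus vagina count (1) was 4 with quantile normalization or the scan day as a block, 3 with a pseudocount of 100, 2 with no variance trend, 0 with a pseudocount of 1, in a fit of the groups compared, without the oviduct arrays numbered 1 or without those of conflicting records, and 0 to 2 with single arrays left out. The causes were not tested.

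The labels do not say that array numbers pair samples. Deviations of same-numbered arrays had a median correlation of 0.284 (lowest 0.0968), against 0.233 for other numbers of the same scan day and -0.351 across days, and 10 of 17 arrays correlated best with their own number. With the replicate block the count was 2 for DES oviduct against uterus and 4 for oviduct minus vagina, Ddx4 passed in oviduct, and Gdf9 passed between oil oviduct and oil uterus (adjusted p = 0.0347). Limits are 3 arrays or fewer per group and signals near background for Sycp3, Ddx4 and Zp1.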
